A study of Macaca fascicularis with 9 samples.

Results

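The 71 chaperone genes described here were picked by name from the 29128 features of a single-nucleus RNA data set of cynomolgus monkey (Macaca fascicularis) thalamus. They are the features whose symbols begin with HSPA, HSPB, HSPD, HSPE, HSPH or HSP90, the J proteins DNAJA, DNAJB and DNAJC followed by a number, the CCT subunits with TCP1, and BAG1 to BAG6. The rule itself reads names and no measured value. Nuclei of frozen thalamus from 9 female animals were counted in droplets, with 3 animals in each of 3 groups. Control animals, called saline, were given saline intravenously in 4 biweekly doses. The OTV group was given OTV:MALAT1 at 30 mpk on that schedule and route, and the ASO group was given 4 mg of an antisense oligonucleotide against MALAT1 once, intrathecally. MALAT1 is a long noncoding RNA kept in the nucleus. OTV couples such an oligonucleotide to a protein carrier directed at the transferrin receptor. All groups were sampled 2 weeks after their final dose. Route, number of doses and carrier differ together between the OTV and ASO groups, and no group received saline intrathecally, so these cannot be told apart. MALAT1 itself took 5.38% to 6.36% of UMIs in saline, 4.15% to 5.6% in ASO and 3.12% to 3.8% in OTV animals.

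Chaperones help proteins fold, hold unfolded chains in solution and pass damaged ones on for breakdown. HSP70 proteins bind short stretches of unfolded chain in cycles of ATP use, J proteins (HSP40) bring them clients and start the cycle, and BAG and HSP110 proteins release the nucleotide again. HSP90 finishes the folding of kinases and receptors, and the TRiC ring, built of CCT subunits and TCP1, folds actin and tubulin. A subset is switched on by heat shock factor HSF1 when proteins unfold, also during slow cooling or handling of tissue. RNA in nuclei is mostly recent transcript, so it shows production rather than the protein stock. Of 17 symbols on a list of HSF1-inducible chaperones, 11 were among the features. HSPA1A, HSPA1B, HSPA6, HSPB1, HSPD1 and HSPE1, which include the classic inducible HSP70 genes, were not analysed here.

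Depth and tissue differed between animals. The 79994 nuclei gave 19981249 to 98850459 UMIs per animal, with median UMIs per nucleus from 2579 in OTV replicate 3 to 7791 in ASO replicate 2. The 36 pairs of libraries shared 3 to 48 cell barcodes, in 1522 nuclei. Striatal or telencephalic markers summed to 3034 CPM (counts scaled to a common library total) in saline replicate 3, 532.5 in ASO replicate 3 and 212.6 in saline replicate 1, against 18.3 to 49.49 in the other 6 animals, while thalamic markers lay between 272.2 and 395.7 in all 9. Those 3 libraries therefore stand apart from the labelled tissue, and saline replicate 3 also held 1074 oligodendrocytes among 2956 nuclei. Oligodendrocyte markers summed to 1377 CPM in all nuclei of saline replicate 3 and to 4140 to 8111 CPM elsewhere. Counts of calls are given below with all animals, with single animals left out and with a term for the ratio of the 2 region scores. No fit left out all 3 of these libraries together. The thalamic sum rested mostly on TCF7L2, which had 755.3 CPM in astrocytes and 245.1 in oligodendrocytes, beside 121.8 in neurons. Neither that sum nor the ratio therefore measures how much thalamus a library held.

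The summed share of the chaperones was 0.34%, 0.344% and 0.275% of all UMIs in the 3 saline animals. Their share was 0.351%, 0.41% and 0.36% in the ASO animals and 0.358%, 0.317% and 0.313% in the OTV animals. Every ASO animal lay above every saline animal in this share, and the OTV animals overlapped with both groups. Without DNAJC6, an oligodendrocyte-rich gene, saline (0.247% to 0.282%) and ASO (0.281% to 0.339%) overlapped too. The share was not tested. Counts ran from 6 genes with under 100 UMIs in the whole data set to 344494 UMIs for DNAJC6, with HSP90AA1 next at 119115. In the sums over all nuclei 66 of the 71 genes passed the filter on low counts. HSPB7, DNAJB8, CCT8L2, DNAJC5B and DNAJC22 did not pass it. CPM below are scaled with the TMM factors of the fit they come from, which correct for differences in composition. Levels compared between types use the fit of all types and differ in scale from those within a type. Values per cluster and those set beside them, single cell type markers and CNP are scaled to raw UMI totals instead. Where 3 values are given for a group, they are replicates 1, 2 and 3.

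Some of the HSF1-inducible chaperones, HSP90AA1 first among them by counts, were high in 2 single animals, 1 of the ASO and 1 of the OTV group. HSP90AA1, the inducible cytosolic HSP90, stood at 143, 160.1 and 83.2 CPM in saline, 138, 489 and 175 in ASO and 308, 96.5 and 142 in OTV animals, counted over all nuclei. ASO replicate 2 and OTV replicate 1 were the highest of the 9, and the groups overlapped. In a sum over all nuclei, fewer cells of a type and less RNA per cell cannot be told apart, but the same 2 animals led in oligodendrocyte nuclei alone, where HSP90AA1 measured 162, 181 and 118 CPM in saline, 151, 506 and 222 in ASO and 352, 109 and 145 in OTV animals. Neither difference from saline passed the threshold for this gene: on the log2 scale in all nuclei it was 1.05 (SE 0.57, adjusted p = 0.543) for ASO and 0.50 (SE 0.56, adjusted p = 0.58) for OTV, tested by the quasi-likelihood method of edgeR and adjusted by Benjamini-Hochberg for all genes in the fit.

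Its constitutive paralogue HSP90AB1 was highest in the same 2 animals in oligodendrocytes. It measured 80.8, 84.4 and 54.6 CPM in saline, 59.4, 143 and 84.9 in ASO and 185, 63.3 and 92.4 in OTV animals, so OTV replicate 1 and ASO replicate 2 again stood above the other 7. DNAJB1, the J protein most tied to the heat shock response, gave 5.72, 6.77 and 4.602 CPM in saline, 5.401, 11.96 and 4.71 in ASO and 14.6, 7.93 and 7.69 in OTV animals. The OTV animals all lay above the saline animals for DNAJB1, with a log2 difference of 0.80 (SE 0.40, adjusted p = 0.195) that did not pass the threshold. HSPH1, an HSP110 nucleotide exchange factor for HSP70, ranged from 31.1 CPM in ASO replicate 1 to 73.97 in OTV replicate 1. DNAJB6, which keeps aggregating chains in solution, ranged from 50.4 CPM in saline replicate 3 to 76.1 in ASO replicate 2, and its OTV minus saline difference was 0.14 (SE 0.14, adjusted p = 0.546).

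The list of 11 inducible genes also holds HSPA8 and HSP90AB1, which are made without stress and rise further with it. Summed over the 11, the level in oligodendrocytes was 714.5, 786.8 and 566.1 CPM in saline, 687.9, 1315 and 821.4 in ASO and 1036, 573 and 648.9 in OTV animals. ASO replicate 2 had the highest sum also in OPCs (875.9 CPM, the other 8 animals 436.7 to 639.7), in myeloid nuclei (792.3, the others 479.4 to 747.8) and in astrocytes (795.9, the others 433.4 to 645.2). OTV replicate 1 came second in oligodendrocytes, OPCs and myeloid nuclei but not in astrocytes, where its 580.8 CPM lay below saline replicate 2. Among the 10 inducible genes with at least 500 UMIs in all nuclei, 4 were highest in ASO replicate 2, 3 in OTV replicate 1 and 7 were lowest in saline replicate 3. Of the other 53 chaperones with that many UMIs 12 were highest in ASO replicate 2, 8 in OTV replicate 1 and 19 lowest in saline replicate 3. In oligodendrocytes alone 4 and 3 of 10 inducible genes were highest in those 2 animals and 3 were lowest in saline replicate 3, the animal with few oligodendrocytes. Those 2 animals were not the highest for the inducible list alone. In oligodendrocytes ASO replicate 2 and OTV replicate 1 also had the highest sums of 11 chaperones of the endoplasmic reticulum (636.4 and 746.8 CPM, the next 609.1). The same was true of 19 co-chaperones (1535 and 1228 CPM, the next 948.1) and of 17 genes of the unfolded protein response (665.4 and 786.8 CPM, the next 618.4), which are not in the set. A list of 20 immediate early and dissociation response genes marks a handling response of another kind. The sum of this list ordered the animals differently from type to type. In oligodendrocytes it was highest in OTV replicate 1, at 48.71 CPM with 45.6 next in saline replicate 3, while ASO replicate 2 had 34.04. In OPCs ASO replicate 2 was highest at 88.84 CPM, and OTV replicate 1 had 71.6. In astrocytes these animals had 50.16 and 55.29 CPM, with 99.25 in ASO replicate 1. In myeloid nuclei they had 333.5 and 388.1 CPM, with 519.7 in saline replicate 1. In all nuclei the list summed to 50.88 CPM in ASO replicate 2, 74.85 in OTV replicate 1 and 75.71 in saline replicate 3. Tissue handling times are not given in the labels, and their part in these levels was not tested.

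**Figure D1:**
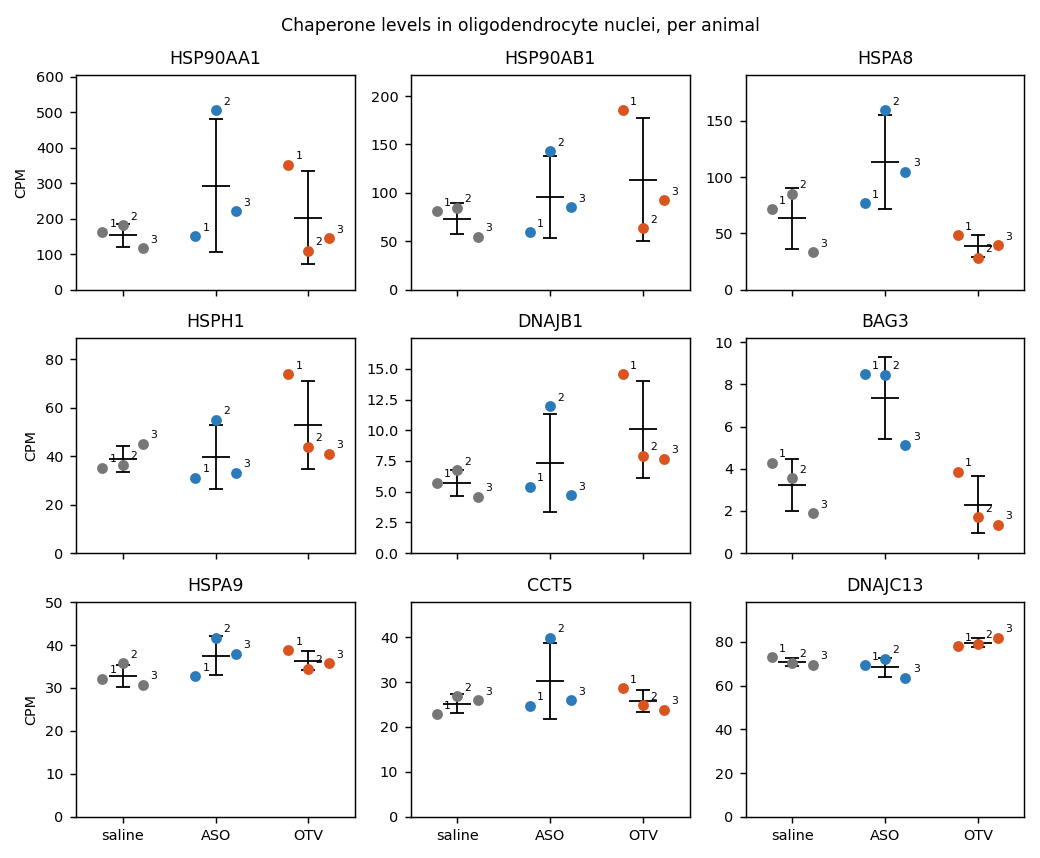
CPM (y axis) of 9 chaperones in oligodendrocyte nuclei by treatment group (x axis). Each point is 1 animal with its replicate number, and the horizontal line and bar are the mean and SD of 3 animals. In the top row HSP90AA1 is highest in ASO replicate 2 and OTV replicate 1 and HSPA8 in ASO replicate 2, while HSPA9 and DNAJC13 in the bottom row vary little and CCT5 is 39.9 in ASO replicate 2 and 22.8 to 28.7 in the other 8 animals.

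Spread between animals had a higher median for the inducible list than for the other lists of chaperones, as a description with no test. The within-group SD of log2 CPM over the 9 animals had a median of 0.537 for the 11 inducible chaperones in oligodendrocytes. It was 0.147 for 11 chaperones of the endoplasmic reticulum, 0.154 for 7 mitochondrial ones, 0.197 for the 8 TRiC subunits, 0.117 for 3 clathrin and synaptic vesicle J proteins, 0.171 for 4 ribosome-linked or nuclear J proteins and 0.22 for 4 BAG proteins. BAG3 counts in both the BAG and the inducible list. All 20036 genes tested in oligodendrocytes had a median of 0.372, above each of those lists and below the inducible one. The inducible median was also above that of all genes in OPCs (0.429 against 0.299) and myeloid nuclei (0.427 against 0.34), but not in all nuclei (0.404 against 0.421) or astrocytes (0.368 against 0.369). Without ASO replicate 2 the inducible median fell to 0.373, beside 0.186 for the other 55 chaperones and 0.368 for all genes, and without both ASO replicate 2 and OTV replicate 1 it was 0.319, beside 0.16 and 0.346. Leaving out saline replicate 3 gave 0.473, 0.178 and 0.334. Within the inducible list the spread itself was uneven, from 0.124 for DNAJB4 to 0.799 for HSPB8, which had only 128 UMIs in oligodendrocytes. Single genes overlapped between lists. DNAJB6 and DNAJA1 of the inducible list had 0.18 and 0.247, while HSPA12A and HSP90B1, which are not on it, had 0.555 and 0.391. The genes behind the median of all genes were not matched to the chaperones for level. Over all nuclei the lowest SD of any chaperone was that of DNAJB12, a J protein of the endoplasmic reticulum membrane, at 0.0852, and the highest was that of HSPB3, a small heat shock protein known from muscle, at 1.89.

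**Figure D2:**
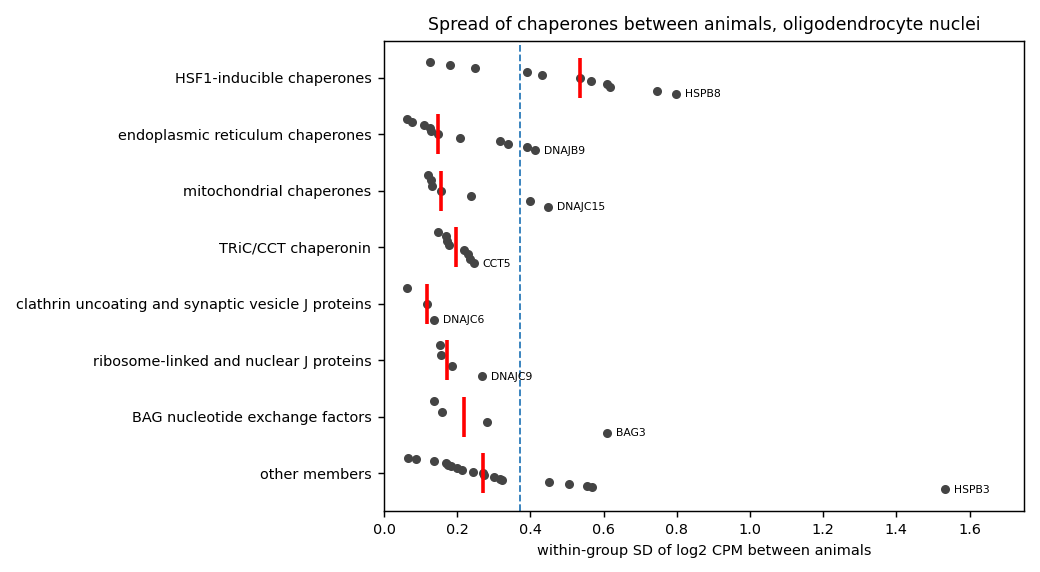
Within-group standard deviation of log2 CPM between the 9 animals (x axis) for each chaperone tested in oligodendrocyte nuclei, by functional list (y axis). Each point is a gene, red bars are list medians, the most variable gene of each list is named, and the dashed line is the median of all genes tested (0.372). The inducible list has its median at 0.537, to the right of the dashed line, and every other list has it to the left.

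No chaperone passed the threshold for ASO against saline in any of the 5 fits. In all nuclei 0 of 66 were called, against 0.032% of all 21854 genes tested, and 4 of the 66 had an unadjusted p under 0.05. In oligodendrocytes it was 0 of 66 (0.394% of all genes, 5 unadjusted), in OPCs, the precursors of oligodendrocytes, 0 of 60 (0.262%, 2 unadjusted), in myeloid nuclei 0 of 58 (0.197%, 3 unadjusted) and in astrocytes 0 of 62 (0.0147%, 2 unadjusted). A DESeq2 Wald test on the same sums called 0 in all nuclei and 2 over the 4 cell types, 1 higher and 1 lower. With so few calls among all genes, these counts say little about the chaperones in particular. The smallest unadjusted p in all nuclei belonged to HSPA4L, an HSP110 relative, at 24.3, 38.7 and 37.5 CPM in saline and 18.2, 22.6 and 19.9 in ASO animals. The groups did not overlap, and the log2 difference was -0.73 (SE 0.19, adjusted p = 0.374). BAG3, a nucleotide exchange factor that works with HSPB8 in clearing damaged proteins, came next at 4.23, 4.73 and 2.81 CPM in saline against 9.798, 8.45 and 5.28 in ASO animals, without overlap, a difference of 0.99 (SE 0.31, adjusted p = 0.42). CCT4, a TRiC subunit, had a difference of 0.46 (SE 0.17, adjusted p = 0.487).

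OTV against saline gave 11 called chaperones of 66 in all nuclei (16.7%), 3 higher and 8 lower. The background was 15.7% of all genes, 5.72% higher and 9.94% lower, so the share of chaperones called was close to that of genes in general. In oligodendrocytes 14 of 66 were called (21.2% beside 19.2% of all genes), 5 higher and 9 lower, where 7.52% of all genes were higher and 11.7% lower. OPCs had 11 of 60 (18.3% beside 22.1%), 5 higher (background 10.2%) and 6 lower (11.9%). Myeloid nuclei had 12 of 58 (20.7% beside 12%), 2 higher (4.76%) and 10 lower (7.26%). Astrocytes had 10 of 62 (16.1% beside 15.4%), 4 higher (6.27%) and 6 lower (9.12%). The median size of the log2 difference was 0.34 for the chaperones and 0.48 for all genes in all nuclei. In 8 of 60 chaperones tested in at least 3 of the 4 types the call went the same way in at least 3 types, 2 higher and 6 lower, beside 10% of all 13523 such genes.

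The count in all nuclei depended on which animals entered. It was 2 without OTV replicate 2 or without OTV replicate 3, 4 without saline replicate 1 or saline replicate 2, 5 without OTV replicate 1, 6 without ASO replicate 1 and 11 without saline replicate 3. With a term for the region score it was 7. Of the 11 genes called, 9 stayed called without saline replicate 3 and all kept their direction in every alternative. DNAJC4 and DNAJB7 stayed called in every one. Over the 4 cell types the total of 47 calls moved to 26 without saline replicate 1 and to 30 without OTV replicate 3. Without saline replicate 3, 12 of the 14 calls in oligodendrocytes, 8 of 11 in OPCs, 11 of 12 in myeloid nuclei and 8 of 10 in astrocytes were kept.

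**Figure D3:**
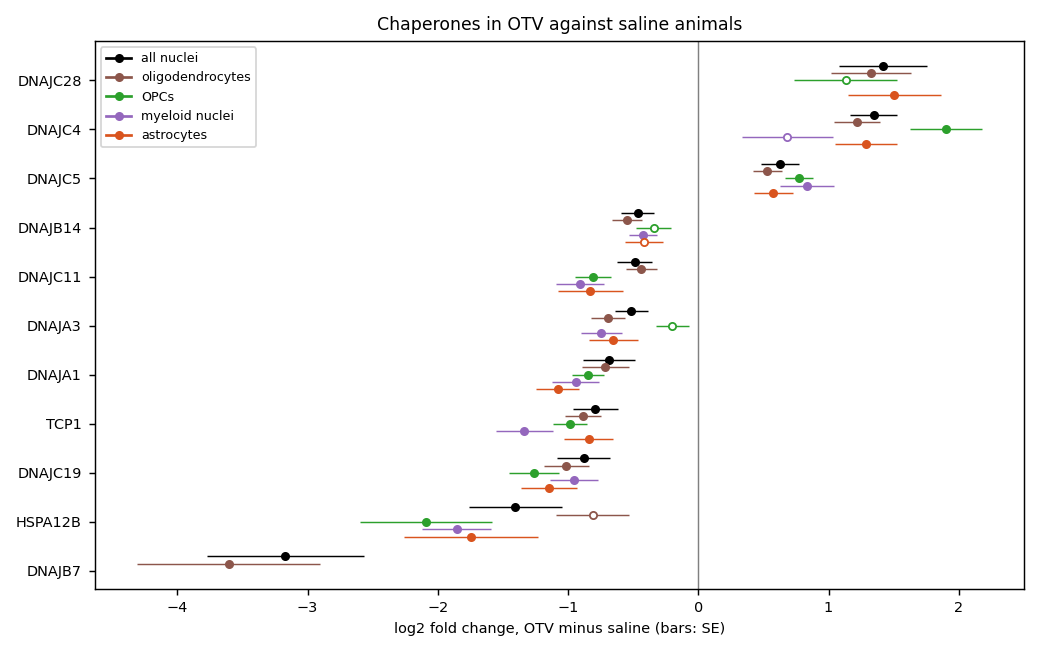
Log2 fold change of OTV minus saline (x axis, bars are SE) for the 11 chaperones called in all nuclei (y axis), in all nuclei and in 4 cell types. Filled points passed an adjusted p of 0.05 and open points did not. DNAJC28, DNAJC4 and DNAJC5 lie to the right of 0 and the other 8 genes to the left in each fit shown.

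Among the HSF1-inducible chaperones 1 was called in each fit, of 11 tested in all nuclei, oligodendrocytes and astrocytes and of 10 in OPCs and myeloid nuclei. Of all genes 15.7%, 19.2%, 15.4%, 22.1% and 12% were called in those fits, in that order, so the count is near or below the background. The gene was DNAJA1, the main cytosolic J protein partner of HSP70, which was lower after OTV. In all nuclei it stood at 82.2, 89.4 and 64.3 CPM in saline, 86.1, 115 and 101 in ASO and 60.9, 43.02 and 42.7 in OTV animals. The highest OTV animal lay below the lowest saline animal, and the difference was -0.69 (SE 0.20, adjusted p = 0.0472). Within types it was -0.71 (SE 0.18, adjusted p = 0.0235) in oligodendrocytes, -1.08 (SE 0.17, adjusted p = 0.00373) in astrocytes, -0.85 (SE 0.12, adjusted p = 0.000873) for OPCs and -0.94 (SE 0.18, adjusted p = 0.0093) for myeloid nuclei. In OPCs, myeloid nuclei and astrocytes no alternative removed the call, while in all nuclei 9 of 17 did. The median of the 11 inducible genes was 0.20 in all nuclei, beside -0.06 for all genes, so DNAJA1 went against most of its list.

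HSPA8, the constitutive cytosolic HSP70 that also strips clathrin from vesicles, separated OTV from ASO animals rather than from saline. In oligodendrocytes it measured 71.7, 85.3 and 33.1 CPM in saline, 76.6, 159 and 105 in ASO and 48.4, 28.3 and 39.7 in OTV animals. Every OTV animal was below every ASO animal, and saline replicate 3 fell among the OTV animals. Its log2 difference there was -1.55 (SE 0.38, adjusted p = 0.0168) against ASO and -0.72 (SE 0.37, adjusted p = 0.217) against saline. Against ASO it was also lower in OPCs, with a difference of -1.25 (SE 0.36, adjusted p = 0.0289), and in astrocytes, with -1.40 (SE 0.43, adjusted p = 0.0442), but in all nuclei it missed the threshold at -1.48 (SE 0.47, adjusted p = 0.0623). BAG3 was lower in OTV than in ASO animals, with a difference of -1.64 (SE 0.43, adjusted p = 0.0212) in oligodendrocytes and -1.08 (SE 0.31, adjusted p = 0.0427) in all nuclei, where 4.48, 3.07 and 3.55 CPM in OTV animals lay beside the 9.798, 8.45 and 5.28 CPM of ASO animals. HSPA4L went the other way, at 38.1, 34.4 and 39.4 CPM in OTV animals, a difference of 0.88 (SE 0.20, adjusted p = 0.0162) from ASO without overlap.

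The mitochondrial chaperones split. Of 7 tested in all nuclei 5 were called, 2 higher and 3 lower, where 15.7% of all genes were called. Of the 5 calls 1, that of DNAJC4, was kept without saline replicate 1, OTV replicate 2 or OTV replicate 3, 2 without saline replicate 2 or OTV replicate 1, and 3 without ASO replicate 1. DNAJC19, a J protein of the inner membrane tied to the import motor, stood at 78.4, 66.1 and 51.9 CPM in saline, 66.6, 73.5 and 74.9 in ASO and 41.5, 38.6 and 26.7 in OTV animals. OTV animals did not overlap with either other group, and the difference from saline was -0.88 (SE 0.20, adjusted p = 0.0222). It was lower in all 4 types, from -1.01 in oligodendrocytes, -0.96 in myeloid nuclei and -1.146 in astrocytes to -1.26 in OPCs, and in each type no alternative removed the call. DNAJA3, a matrix J protein that works with HSPA9, measured 70.4, 57.02 and 65.1 CPM in saline, 70.8, 60.6 and 82.1 in ASO and 39.4, 39.9 and 39.8 in OTV oligodendrocytes, a difference of -0.69 (SE 0.13, adjusted p = 0.00638). It was also lower in myeloid nuclei (-0.74) and astrocytes (-0.65). DNAJC11, an outer membrane protein linked to cristae organisation, was lower in all 4 types, most in myeloid nuclei, where 142, 143 and 102 CPM in saline stood against 67.4, 76.7 and 62.3 in OTV animals, a difference of -0.91 (SE 0.18, adjusted p = 0.0108).

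DNAJC4 had the smallest adjusted p of any chaperone in all nuclei. It stood at 4.55, 5.52 and 4.796 CPM in saline, 5.27, 5.57 and 5.71 in ASO and 13, 11.1 and 13.7 in OTV animals. Saline and ASO animals overlapped closely and every OTV animal was far above both, with a difference of 1.35 (SE 0.18, adjusted p = 0.00314) from saline and 1.19 (SE 0.18, adjusted p = 0.00316) from ASO. The rise was 1.22 in oligodendrocytes, 1.90 in OPCs and 1.29 in astrocytes, while the 0.68 (SE 0.35, adjusted p = 0.23) in myeloid nuclei did not pass. DNAJC28, a little studied J protein, rose from 2.49, 2.96 and 1.502 CPM in saline to 6.32, 5.41 and 7.01 in OTV animals, with 2.43, 3.304 and 1.65 in ASO animals, a difference of 1.42 (SE 0.34, adjusted p = 0.0246). It was also called in oligodendrocytes and astrocytes, on 1438 and 143 UMIs. HSPA9, the mitochondrial HSP70, stood between 28.4 and 42.4 CPM in all 9 animals, and its OTV minus saline difference of 0.24 (SE 0.15, adjusted p = 0.317) did not pass.

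In the TRiC ring only TCP1 of the 8 subunits was called in all nuclei, oligodendrocytes, OPCs and astrocytes, and TCP1 and CCT6A were in myeloid nuclei. These counts of 1 or 2 of 8 stand beside 15.7%, 19.2%, 22.1%, 15.4% and 12% of all genes in those fits, in that order. TCP1 stood at 51.2, 56.4 and 40.8 CPM in saline, 60.3, 57.7 and 51.7 in ASO and 33.6, 27.7 and 24.4 in OTV animals. OTV animals were below every other animal, and the difference from saline was -0.79 (SE 0.17, adjusted p = 0.0173). It was -0.89 (SE 0.14, adjusted p = 0.00295) in oligodendrocytes, -0.84 (SE 0.19, adjusted p = 0.0153) in astrocytes, -0.98 (SE 0.13, adjusted p = 0.000546) for OPCs and -1.34 (SE 0.22, adjusted p = 0.00441) for myeloid nuclei. The other 7 subunits in all nuclei had differences from -0.16 for CCT6A to 0.41 for CCT3, with adjusted p of 0.251 or above. In the RefSeq table TCP1 overlaps ACAT2, and ACAT2 was not analysed here, so reads of the pair cannot be told apart.

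Among 11 chaperones of the endoplasmic reticulum 1 was called in all nuclei, beside 15.7% of all genes. DNAJB14, an endoplasmic reticulum membrane J protein, stood at 72.1, 78.2 and 89.4 CPM in saline, 78.9, 78.5 and 78.8 in ASO and 56.1, 63.4 and 53.99 in OTV animals, a difference of -0.47 (SE 0.12, adjusted p = 0.0362). It was also lower in oligodendrocytes (-0.55) and myeloid nuclei (-0.42). HSPA5, the HSP70 known as BiP, had 73.7, 78.5 and 40.9 CPM in saline, 59.4, 67.9 and 49.04 in ASO and 90.6, 45.6 and 49.6 in OTV animals. These values overlap across the groups, and the OTV minus saline difference was -0.06 (SE 0.32, adjusted p = 0.926). HSP90B1, the HSP90 known as GRP94, was highest in OTV replicate 1 and ASO replicate 2, at 159.8 and 148 CPM, and differed by 0.67 (SE 0.32, adjusted p = 0.195) between OTV and saline. DNAJB12 was higher in OPCs by 0.39 (SE 0.12, adjusted p = 0.0448), and none of its alternatives kept that call. DNAJC3, an inhibitor of translation kinases, was higher in OTV than in ASO oligodendrocytes by 0.44 (SE 0.10, adjusted p = 0.0137). DNAJB9, a BiP partner, was lower in OTV than in ASO OPCs, with a difference of -0.97 (SE 0.32, adjusted p = 0.0406). Against saline the DNAJB9 difference in OPCs was -0.72 (adjusted p = 0.132) and did not pass.

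Of the 3 J proteins of clathrin uncoating and synaptic vesicles, 1 was called in all nuclei, beside the same 15.7% of all genes. DNAJC5, the cysteine string protein that guards the release machinery on synaptic vesicles, was higher after OTV in all 4 types. In all nuclei it stood at 55.5, 49.01 and 68.9 CPM in saline, 65.4, 63.3 and 60.5 in ASO and 82.4, 91.6 and 93.97 in OTV animals. The lowest OTV animal exceeded the highest of the other 6, with a difference of 0.63 (SE 0.14, adjusted p = 0.0218) from saline. It was 0.77 (SE 0.11, adjusted p = 0.000762) in OPCs, where no alternative removed the call, and 0.53, 0.83 and 0.58 in oligodendrocytes, myeloid nuclei and astrocytes. DNAJC6, the clathrin uncoating factor auxilin, was higher in astrocytes, where it measured 26.2, 16.4 and 31.02 CPM in saline, 36.6, 36.4 and 19.4 in ASO and 54.8, 117 and 71.3 in OTV animals, a difference of 1.74 (SE 0.37, adjusted p = 0.0137). It was also higher in OPCs by 0.38 (SE 0.10, adjusted p = 0.0167).

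DNAJC6 was far more abundant in oligodendrocytes than in other types, so the level of oligodendrocyte markers in the other nuclei is given beside it. The sum of 5 measured markers of 6 listed for oligodendrocytes, none of them at 0, was 335.6 to 380 CPM in astrocytes of saline animals, 403.6 to 678 in ASO and 437.7 to 748.6 in OTV animals. In OPCs the same sum was 365.6 to 584.5 CPM in saline, 756.9 to 1008 in ASO and 726.7 to 1081 in OTV animals. In myeloid nuclei it was 707 to 838.5 CPM in saline, 873.5 to 1464 in ASO and 977.3 to 1568 in OTV animals. The order of single animals differed between these markers and DNAJC6: in astrocytes OTV replicate 2 had the most DNAJC6, 117 CPM, and with 437.7 CPM the lowest marker sum of the OTV group. In myeloid nuclei ASO replicate 2 had 1464 CPM of markers and 18.4 of DNAJC6, against 977.3 and 139 in OTV replicate 2. Their part in the DNAJC6 differences was not tested further. The same holds for DNAJB2, a J protein that feeds ubiquitinated clients to the proteasome, which is also an oligodendrocyte-rich gene. It was higher after OTV in oligodendrocytes themselves, at 58.6, 62.4 and 53.6 CPM in saline, 51.5, 63.3 and 59.5 in ASO and 134, 78.8 and 82.2 in OTV animals (difference 0.76, SE 0.20, adjusted p = 0.0263), and in myeloid nuclei by 1.09 (SE 0.26, adjusted p = 0.0241).

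HSPA12B, an atypical HSP70 known from endothelial cells, was lower after OTV in OPCs, myeloid nuclei and astrocytes. It was most abundant in myeloid nuclei, at 56.8, 45.9 and 43.9 CPM in saline, 74.2, 50.2 and 81.8 in ASO and 14.8, 15.9 and 7.95 in OTV animals. Every OTV animal lay below the lowest of the other 6, and the difference from saline was -1.86 (SE 0.27, adjusted p = 0.00255), called in all 17 alternatives. In OPCs it was -2.09 (SE 0.51, adjusted p = 0.0134) and in astrocytes -1.75 (SE 0.52, adjusted p = 0.0473), on 166 and 92 UMIs, and 3 of 15 alternatives kept the astrocyte call. The myeloid nuclei also held endothelial markers: 3 of the 4 listed were measured, none at 0, with VWF at 591.4, PECAM1 at 31.74 and FLT1 at 11.01 CPM beside 901.4 CPM of CSF1R, a microglial receptor. FLT1 was higher in neurons, at 55.52 CPM. In myeloid nuclei these 3 endothelial markers summed to 474.4 to 739.7 CPM in saline and 759.6 to 909.5 in ASO animals. The OTV animals had 183.5, 729.7 and 705.1 CPM, a range that overlaps with saline, and only OTV replicate 1 lay below it. Their part in the HSPA12B difference was not tested.

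The remaining calls lay in 1 or 2 types or on few counts. DNAJB7, an intronless J protein gene, had 49 UMIs in saline and 3 in OTV animals over all nuclei. The ratio of OTV to saline was 0.107, with an exact 95% interval of 0.0213 to 0.332 for counting error alone, and edgeR's quasi-likelihood test gave adjusted p = 0.0104. BAG5, a BAG protein with several BAG domains, was lower in OPCs, with a difference of -0.60 (SE 0.19, adjusted p = 0.0441), and in myeloid nuclei, with -0.50 (SE 0.15, adjusted p = 0.0498), with the second kept in 3 of 17 alternatives. DNAJB5 was higher in oligodendrocytes by 1.00 (SE 0.28, adjusted p = 0.0365) and in OPCs by 0.96 (SE 0.25, adjusted p = 0.0192). HSPBAP1, which is a binding partner of small heat shock proteins rather than one of them, was lower in myeloid nuclei, at 177, 158 and 162 CPM in saline, 138, 127 and 122 in ASO and 119, 106 and 86.1 in OTV animals (-0.66, SE 0.14, adjusted p = 0.0127). The ASO animals lay between the saline and OTV animals there. DNAJC27 was lower in oligodendrocytes, with a difference of -0.58 (SE 0.16, adjusted p = 0.0315).

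In 3 of 61 chaperones the OTV minus saline difference itself differed between the 4 cell types, beside 3.9% of all 14735 genes in the same test of type by treatment. DNAJC7, a co-chaperone that binds both HSP70 and HSP90, had the smallest adjusted p of the chaperones in that test, 0.000874. In oligodendrocytes it stood at 208, 157 and 196 CPM in saline, 177, 164 and 244 in ASO and 102, 104 and 107 in OTV animals, a difference of -0.84 (SE 0.16, adjusted p = 0.00657). Every OTV animal lay below every other animal. In OPCs the same gene stood at 85.1, 90.6 and 96.9 CPM in saline and 97.2, 111 and 118 in OTV animals. Differences in the other types were 0.39 in astrocytes, 0.02 in myeloid nuclei and 0.25 in OPCs, none called. The adjusted p of the test reached at most 0.01701, without saline replicate 1.

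In the RefSeq table DNAJC7 overlaps CNP, which encodes a myelin enzyme of oligodendrocytes, and the sources used here do not say whether counting used strand. CNP had 291.4 CPM in oligodendrocytes and 15.26 to 54.47 in the other 4 types. Its own OTV minus saline difference in oligodendrocytes was 0.14 (adjusted p = 0.801), while DNAJC7 fell. In OPCs CNP was higher by 0.65 (adjusted p = 0.0463), beside the 0.25 of DNAJC7 that was not called. Across all the chaperones, 70 of 71 were listed there and 32 overlapped at least 1 other gene, so their values carry this doubt. FXR1, which overlaps DNAJC19, differed by -0.0012 in oligodendrocytes (adjusted p = 0.998), and THAP3, which overlaps DNAJC11, by -0.04 (adjusted p = 0.928). XPNPEP3, which overlaps DNAJB7, differed by -0.08 (adjusted p = 0.765). Against ASO both THAP3 (0.84, adjusted p = 0.0158) and XPNPEP3 (0.65, adjusted p = 0.0141) were higher there, where their partners were lower. Of the 10 overlapping genes measured, 2 were called in oligodendrocytes for OTV against saline beside chaperones that were not: ENO4, which overlaps HSPA12A, at -2.02 (adjusted p = 0.000752) and MRPS16, which overlaps DNAJC9, at -0.66 (adjusted p = 0.00669).

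DNAJC1, a ribosome-docking J protein of the endoplasmic reticulum, and CCT6A were the other 2. DNAJC1 differed by 0.34 in oligodendrocytes, -0.64 in astrocytes, -0.06 in myeloid nuclei and -0.10 in OPCs, with adjusted p = 0.01831 for the difference between types. In astrocytes it was highest in the 3 libraries with high telencephalic scores, saline replicates 1 and 3 and ASO replicate 3, at 220.4, 230.1 and 199.2 CPM, against 118.9 to 143.9 in the other 6. None of the 4 was called by itself, and the call between types was lost without saline replicate 1 (adjusted p = 0.15), saline replicate 3 (0.06322), OTV replicate 1 (0.1212) or OTV replicate 3 (0.1357). CCT6A was lower in myeloid nuclei, at 133, 128 and 124 CPM in saline, 118, 115 and 99.6 in ASO and 89.01, 78.4 and 58.3 in OTV animals (-0.75, SE 0.16, adjusted p = 0.0139), and differed by -0.14 in oligodendrocytes, 0.06 in OPCs and -0.43 in astrocytes. Its adjusted p between types of 0.02842 rose to 0.1362, 0.1194 and 0.09275 without saline replicates 1, 2 and 3, to 0.09195 and 0.179 without OTV replicates 2 and 3, and to 0.05545 with no filter on low counts.

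**Figure D4:**
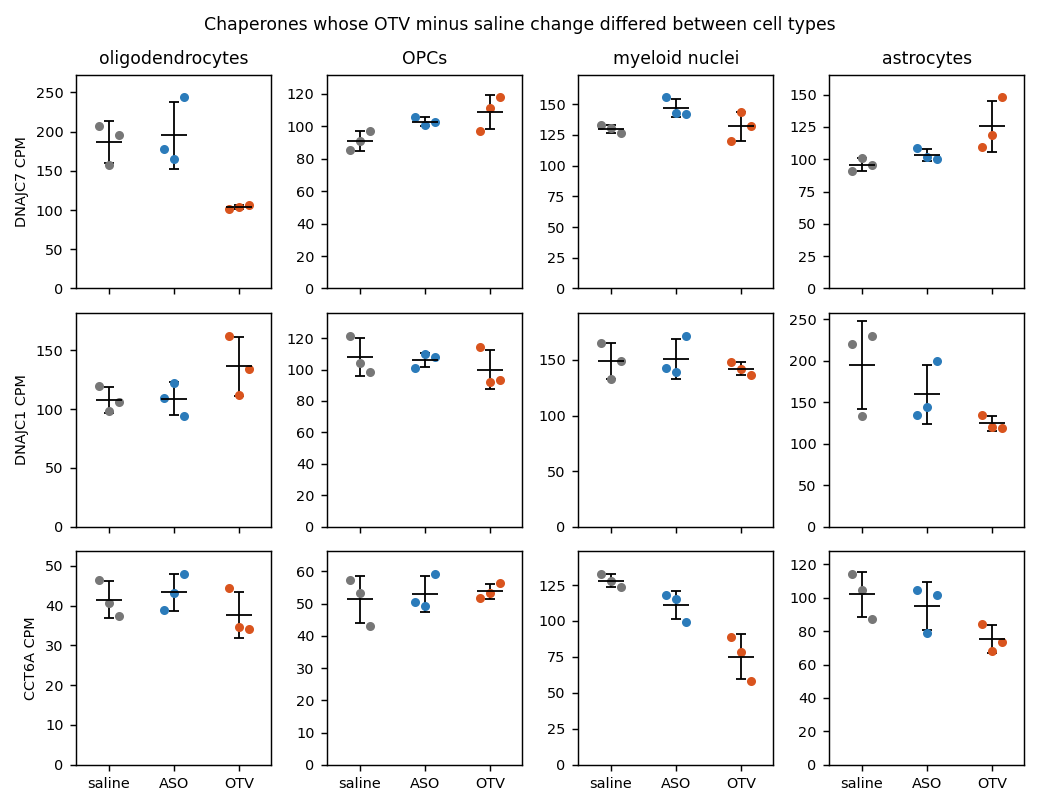
CPM (y axis) of DNAJC7, DNAJC1 and CCT6A by treatment group (x axis) in 4 cell types. Each point is 1 animal and the horizontal line is the mean of 3. DNAJC7 is lower in OTV animals only in the oligodendrocyte panel, and CCT6A is lowest in OTV animals in the myeloid panel.

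OTV against ASO shares the OTV animals with the comparison above, so the 2 sets of calls are not independent. In all nuclei 14 of 66 chaperones were called (21.2% beside 17.9% of all genes), 4 higher and 10 lower. Oligodendrocytes had 17 of 66 (25.8% beside 26.3%), OPCs 14 of 60 (23.3% beside 27.2%), myeloid nuclei 11 of 58 (19% beside 20.5%) and astrocytes 12 of 62 (19.4% beside 22%). These shares were near the background in each fit. TCP1 was lower than in ASO animals in all nuclei, with a difference of -0.98 (SE 0.17, adjusted p = 0.00585), as were DNAJA1 at -1.04 (SE 0.20, adjusted p = 0.00848) and DNAJA3 at -0.71 (SE 0.12, adjusted p = 0.00623), and those 3 calls were kept in every alternative, with DNAJC19 and DNAJC4. The count of 14 moved to 5 without ASO replicate 1, 6 without ASO replicate 3 or OTV replicate 3, 8 without OTV replicate 1 or OTV replicate 2, and 9 without ASO replicate 2. Besides genes named above, DNAJC17 was higher in astrocytes by 0.62 (SE 0.19, adjusted p = 0.0474), DNAJB5 there by 1.69 (SE 0.31, adjusted p = 0.00559) and DNAJC6 in myeloid nuclei by 2.34 (SE 0.53, adjusted p = 0.019), the latter beside the oligodendrocyte markers described there.

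Among regulators and partners that are not in the set, HSF1, the factor that switches on inducible chaperones, was higher after OTV in all nuclei and in each of the 4 types. It stood at 20.1, 24.5 and 22.6 CPM in saline, 21.5, 26.4 and 21.04 in ASO and 40.1, 40.04 and 46.3 in OTV animals, without overlap between OTV and the others, a difference of 0.91 (SE 0.15, adjusted p = 0.00637). Within types the difference was 0.78 in oligodendrocytes, 0.99 in astrocytes, 0.87 in myeloid nuclei and 1.14 in OPCs. In the same animals 0 of the 11 inducible chaperones were called higher, which is near the 5.72% of all genes called higher. Of 19 co-chaperones tested in all nuclei 3 were higher and 2 lower, beside 5.72% and 9.94% of all genes, which is also the background of the lists that follow. Among the 5 were SERPINH1, the collagen chaperone HSP47, at -1.63 (SE 0.29, adjusted p = 0.00778), and HIKESHI, which carries HSP70 into the nucleus, at -0.99 (SE 0.19, adjusted p = 0.0119). CDC37, which loads kinases onto HSP90, was higher by 0.53 (SE 0.13, adjusted p = 0.0296). Of 17 genes of the unfolded protein response 1 was called, ATF4, higher by 1.146 (SE 0.33, adjusted p = 0.0463). Among 18 immediate early and dissociation genes tested 1 was called, NR4A2, higher by 1.17 (SE 0.30, adjusted p = 0.0311). None of 8 prefoldin genes was called in all nuclei, nor any gene of these lists for ASO against saline. HSF1 came from a list of 4 measured heat shock factor genes, and the others are not described here. The alternative fits and the look-up of overlapping genes covered the chaperones alone, so neither is known for the genes of this paragraph.

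Between cell types the chaperones differed strongly, as most genes did. The types are the authors' own and were clustered on these nuclei, so their differences describe the classes, and neurons entered with the 7 animals that had at least 20 of them. Of the 7, saline replicates 1 and 3 and ASO replicate 3 held 364, 527 and 467 neurons, and the other 4 held 23 to 112. Those 3 are the libraries with high telencephalic scores, and telencephalic markers in their neurons summed to 2390, 8488 and 5156 CPM. The other 4 had 287.6 to 624.7 CPM. ASO replicate 3 was the only ASO animal among the 7, and no neuron difference was tested without all 3 libraries. In oligodendrocytes 43 of 62 tested chaperones differed from the mean of the other 4 types (72.4% of all genes did), 30 higher (39.6% of all genes) and 13 lower. With the size factors of DESeq2 that split was 23 higher and 17 lower, a scaling that moved the median of all genes from 0.04 to -0.09. OPCs had 32 called (60.8%), 10 higher (29.6%), myeloid nuclei 40 (75.6%), 18 higher (33.6%), astrocytes 46 (65.2%), 20 higher (32.2%), and neurons 33 (61.4%), 11 higher (30.4%). In the 3 saline animals alone the counts were lower in every type: 29 in oligodendrocytes, 17 in OPCs, 31 in myeloid nuclei, 29 in astrocytes and 22 in neurons.

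DNAJC6 marked oligodendrocytes. Its level there had a lowest, median and highest animal of 876, 935 and 1245 CPM, against 138, 164 and 179.9 in neurons, 126, 135 and 183 in OPCs, 16.4, 36.3 and 115 in astrocytes and 16.8, 28.9 and 124 in myeloid nuclei. The lowest oligodendrocyte value exceeded every value in another type, and the log2 difference from their mean was 3.63 (SE 0.14, adjusted p = 8.66e-19). Neurons and OPCs overlapped. DNAJB2 followed at 2.11 (SE 0.08, adjusted p = 1.94e-18) and HSP90AA1 at 1.11 (SE 0.10, adjusted p = 4.11e-11), with 126, 180.5 and 562 CPM in oligodendrocytes and 55.5, 105 and 238 in OPCs, and those ranges overlap. DNAJC9, a histone chaperone, was higher by 0.96 (SE 0.12, adjusted p = 4.96e-08).

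Astrocytes held the HSPB8 and BAG3 pair. HSPB8, a small heat shock protein, had 1.11, 6.59 and 13.8 CPM as lowest, median and highest animal in astrocytes, and no animal exceeded 1.505 in any other type. Its difference was 4.53 (SE 0.26, adjusted p = 6.06e-14). BAG3 had 14.5, 21.2 and 29.2 CPM in astrocytes, above every animal in every other type, the nearest being oligodendrocytes at 1.57, 4.35 and 9.56, a difference of 2.86 (SE 0.16, adjusted p = 5.01e-15). BAG5 (1.40, SE 0.09, adjusted p = 4.35e-14) and HSPA4L (1.10, SE 0.09, adjusted p = 3.75e-11) were next. HSPA4L had similar medians in neurons and OPCs and lower ones in oligodendrocytes and myeloid nuclei, at 68.69, 72.25, 22.98 and 13.35 CPM in that order beside 67.7 in astrocytes.

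Neurons had most HSPA12A, an HSP70 relative of brain, at 77.02, 206 and 302 CPM, followed by astrocytes at 4.68, 20.3 and 94.2, a difference of 4.08 (SE 0.24, adjusted p = 8.82e-14). Animals of those types overlapped for this gene through saline replicate 3 and ASO replicate 3, 2 of the libraries with high telencephalic scores, with 86.9 and 94.2 CPM in astrocytes. The other 7 had 4.68 to 33.1. HSPH1 was higher in neurons by 1.32 (SE 0.09, adjusted p = 5.01e-13), at 75.8, 85.8 and 104 CPM, and DNAJB13, an axonemal protein, by 2.77 (SE 0.25, adjusted p = 1.75e-10), at 2.65, 7.64 and 26.7. Its 3 highest neuron values, 26.7, 22.1 and 24.1 CPM, were those of saline replicate 1, saline replicate 3 and ASO replicate 3, the libraries with high telencephalic scores, and the other 4 animals had 2.65 to 7.64. The difference was not tested without all 3. In neurons HSPA8 was lower, with a difference of -0.81 (SE 0.12, adjusted p = 7.8e-07). Myeloid nuclei led in HSPA12B (3.10, SE 0.19, adjusted p = 3.01e-14), HSPBAP1 (2.55, SE 0.09, adjusted p = 2.17e-19), DNAJC5 (1.02, SE 0.05, adjusted p = 2.75e-17) and DNAJA3 (0.84, SE 0.06, adjusted p = 2.48e-13). Among chaperones higher in OPCs the largest differences were those of HSPA4L, at 1.02 (SE 0.09, adjusted p = 1.98e-10), and DNAJB5, at 0.89 (SE 0.12, adjusted p = 5.06e-07), followed by CCT6B, a paralogue of CCT6A that is not among the 8 subunits above, at 0.54 (SE 0.08, adjusted p = 2.59e-06) and the TRiC subunit CCT2 at 0.49 (SE 0.07, adjusted p = 4.75e-07). For DNAJB5 astrocytes were called as well, in all 12 alternatives. It ranged from 3.85 to 21.2 CPM in astrocytes and from 6.03 to 17.4 in OPCs, each scaled in its own fit. DNAJB5 and HSPA12B were higher in neurons too, by 1.48 (SE 0.16, adjusted p = 7.26e-09) and 1.97 (SE 0.23, adjusted p = 3.65e-08). Endothelial markers in the neurons summed to 4.817 to 951 CPM over these animals, with 951 in OTV replicate 1, which had the most HSPA12B (59.6 CPM), and 31 in OTV replicate 2, which had the least (5.09). The order did not hold across the other animals: saline replicate 3 had the lowest sum, 4.817, with 12.8 CPM of HSPA12B, and saline replicate 2 had 392.6 with 13.2. Their part was not tested further. The organelle HSP70 genes were more even: HSPA5 ran from a log2 difference of -0.59 in neurons to 0.43 in oligodendrocytes, and HSPA9 from -0.36 in OPCs to 0.38 in astrocytes.

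**Figure D5:**
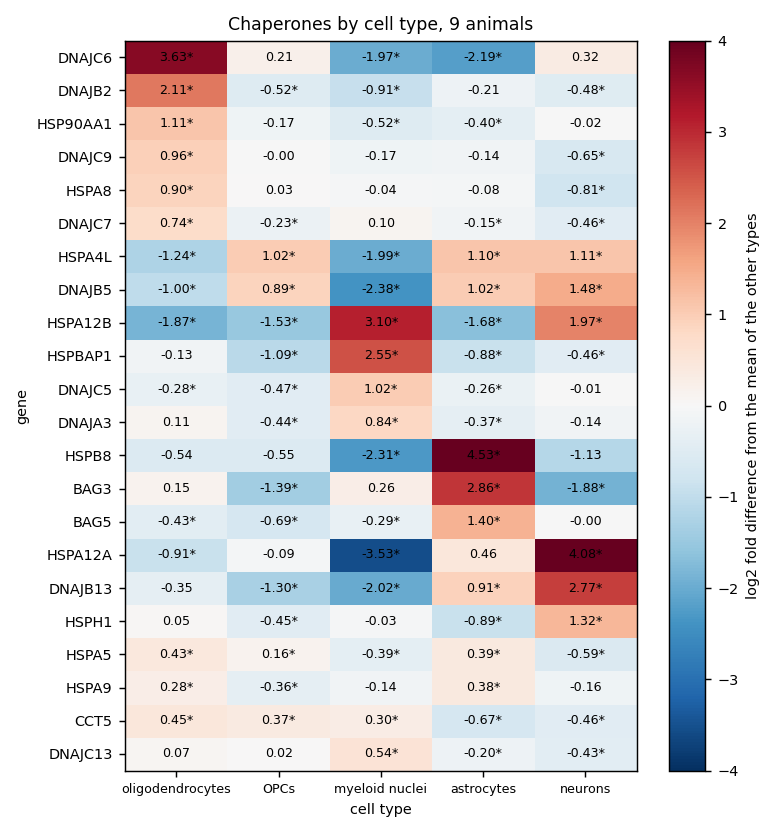
Log2 difference of each of 22 chaperones (rows) in a cell type (columns) from the mean of the other 4 types, with the value printed and an asterisk where the adjusted p was under 0.05. Red is higher and blue lower. DNAJC6 stands out in oligodendrocytes (3.63), HSPB8 in astrocytes (4.53), HSPA12A in neurons (4.08) and HSPA12B in myeloid nuclei (3.10), while HSPA5 and HSPA9 stay pale.

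Levels per cluster of the authors were even for some chaperones and not for others. They are scaled to raw UMI totals, so they do not compare directly with the levels above. DNAJC6 had a pooled level of 794.2 to 860.5 CPM over the 7 oligodendrocyte clusters, and HSPA12B had 43.61 and 50.2 CPM in both myeloid clusters. DNAJB2 was 64.17 to 75.15 CPM in 6 oligodendrocyte clusters and 138.6 in cluster 8, of whose 2768 nuclei 1657 came from OTV replicate 1. That animal had the most DNAJB2 in each of the 7 clusters, from 103.3 to 170.1 CPM, and the oligodendrocyte call against saline was kept without it. For HSP90AA1 ASO replicate 2 was highest in each of the 7 clusters, at 447.8 to 551.7 CPM, and OTV replicate 1 was second in clusters 0, 1 and 2 and came after ASO replicate 3 in the other 4. These values per cluster were looked up after the others were seen. BAG5 stood at 308.9 CPM in the main astrocyte cluster and 428.9 in a small one of 538 nuclei with a median of 1935 UMIs.

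The authors left 2 clusters without a cell type, cluster 15 with 213 nuclei and cluster 16 with 118, and neither entered a comparison by type. The 2 ependymal markers measured, CFAP43 and DNAH9, summed to 5125 CPM in cluster 16 and 16.7 in cluster 15. In the clusters with a cell type they summed to 12.47 to 157.2 CPM. Astrocyte markers summed to 2281 CPM in cluster 16, and to 9253 and 7868 in the astrocyte clusters. DNAJB13, a radial spoke protein of motile cilia, had 250.9 CPM in cluster 16 on 197 UMIs, with at least 1 UMI in 74.58% of nuclei at a median of 6349.5 UMIs. In oligodendrocytes, which carry no motile cilia, it had 2.01 CPM and a UMI in 1.187% of nuclei at a median of 6016 UMIs. Of the 118 nuclei 75 came from ASO replicate 3, 25 from saline replicate 1 and 14 from saline replicate 3, the animals with high telencephalic scores, and 145 of the 197 UMIs came from ASO replicate 3. HSPA12A at 276.4 CPM, HSPH1 at 160.5 and HSP90AA1 at 314.6 were also measured in these nuclei.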

How the data were processed

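Nuclei of 9 thalamus samples were analysed from deposited raw UMI counts per gene and nucleus, with the authors' cell types and clusters. Cell Ranger 6.1.2, Seurat 4 and the build GRCh38.p13 are named per the submitters' processing notes, while the gene identifiers are those of cynomolgus monkey, and the mapping reference was not settled. All 79994 nuclei are marked singlet in the authors' deposited table and were kept. The sources used here do not name the caller, and the authors' deposited doublet score served only in an alternative. Counts were summed per animal, and per animal and type from at least 20 nuclei, and tested over all genes with edgeR 4.0.16 in R 4.3.3 (TMM, low-count filter, quasi-likelihood, Benjamini-Hochberg, called under 0.05). Cell types were compared with the animal as a block. SE is the log2 difference over the root of F, and log2 CPM used a prior of 0.5 counts. The fits were tested on simulated data. Alternatives were DESeq2 1.42.0 size factors and Wald test, no filter, nuclei of at least 2000 UMIs, leaving out the 10% highest doublet scores, thinned totals, a region term, the 6 compared animals, the 3 saline animals, and each animal left out. Spread without single animals, overlapping genes, the share without DNAJC6 and values per cluster and animal were added after seeing the data. Members and lists were chosen with earlier results of these data known. Named genes are 18 core chaperones where listed, up to 8 called per direction, fit and comparison (the 3 smallest unadjusted p where none was called), those called alike in 3 types, the 4 highest per type, those differing between types, and at most 4 called per outside list. Others were chosen after their values were seen.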

Additional observations from a re-analysis of the deposited data

Results flagged for a closer look

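The OTV minus saline difference itself differed between cell types for 3 chaperones, by the test of type by treatment in edgeR with Benjamini-Hochberg adjustment over all genes. That is 3 of 61 tested, beside 3.9% of all 14735 genes, so the count is near the background. DNAJC7 had adjusted p = 0.000874, with oligodendrocytes lower and no call in the other 3 types. DNAJC1 had adjusted p = 0.01831, with a difference of 0.34 in oligodendrocytes and -0.64 in astrocytes, where it was highest in the 3 libraries with high telencephalic scores (199.2 to 230.1 CPM, the other 6 at 118.9 to 143.9). CCT6A had adjusted p = 0.02842, with a call in myeloid nuclei. DNAJC1 and CCT6A lost the call without single animals, as given above.

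DNAJB13 reached 250.9 CPM in cluster 16, whose 118 nuclei, like the 213 of cluster 15, have no cell type and enter no comparison by type, against 2.01 CPM in oligodendrocytes. The 2 ependymal markers measured summed to 5125 CPM in cluster 16.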

How the results depend on the processing

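Of 173 alternative counts 149 stayed within 1.5 times, which includes counts for ASO against saline that were 0 and stayed 0. Of 422 alternatives for the chaperones called in all nuclei 304 kept the call, 118 lost it and 0 reversed. For OTV against saline the 11 calls in all nuclei became 4 with only the 6 compared animals and 7 with the region term, and 2 to 11 with 1 animal left out. The 47 over 4 types became 30 after thinning and 26 to 44 with 1 animal left out. For OTV against ASO 14 became 5 to 17 and 54 became 34 to 56 in that way. For ASO against saline the DESeq2 Wald test called 2 over 4 types instead of 0, and leaving out any animal gave 0 to 0. Between types, 3 saline animals alone gave 17 in place of 32 for OPCs and 29 in place of 46 for astrocytes. They also gave 29 in place of 43 for oligodendrocytes, 31 in place of 40 for myeloid nuclei and 22 in place of 33 for neurons. Leaving out 1 animal gave 40 to 44 in oligodendrocytes, 27 to 30 in OPCs, 34 to 40 in myeloid nuclei, 44 to 49 in astrocytes and 29 to 35 in neurons. The 3 calls that differed between types became 1 to 5. The cause of these moves was not tested. Of 194 calls by type 120 were kept in every alternative and 0 reversed. The setting without ASO replicate 3 was not run for cell types, since no ASO sum of neurons is left. Recovery was incomplete on data simulated at the depths and 3 animals a group used here, and neither was varied. For OTV against saline edgeR recovered 3% of genes changed by log2 1 and 43% by log2 2 over 21529 genes in all nuclei. In myeloid nuclei it recovered 23% and 68% over 12303 genes. Only 100 genes were changed by each size, while the real fits called 3423 of 21854 and 1522 of 12667 genes. The adjustment was therefore stricter in the simulation, and these shares do not give the power of the real tests. No paired analysis was possible because no label ties an animal of 1 group to an animal of another. The planned description of heat shock elements in promoters was not run.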
